A study of Mus musculus with 12 samples.

Results

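Interferon-stimulated genes are the genes that cells switch on when interferon binds its receptors. The list described here held 38 of them, given by symbol and not by a measured value: the IFIT family, the ISG15 system, the OAS family, the nucleic acid sensors, the transcription factors of the pathway, further antiviral effectors, the interferon-inducible GTPases and the chemokine gene Cxcl10. The genes were, however, chosen with earlier results of these data known. Every probe whose transcript accession belonged to one of them was taken, and 36 of the 38 genes had a probe (54 probes, out of 18217 genes with a name on the array). Mx1 and Mx2 had no matching probe. The questions were whether the lower RNA levels of the Ifit genes after hormonal induction extended to the other interferon-stimulated genes, and whether less of their RNA was found in both RNA pools or in the polysomal pool alone.

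The cells were 3T3-L1, a mouse embryonic fibroblast line whose confluent cells (preadipocytes) become adipocytes after a hormone cocktail. At 0 h they were confluent, in medium with newborn bovine serum and without hormones. At 6 h they had been given 0.5 mM IBMX (an inhibitor of cyclic nucleotide breakdown), 1 µM dexamethasone (a synthetic glucocorticoid) and 5 µg/ml insulin in medium with fetal bovine serum, so that the 3 agents and the serum cannot be told apart. Lysates were prepared with cycloheximide, which holds ribosomes on the mRNA, and separated on sucrose gradients, where mRNAs carrying many ribosomes sediment fastest. The non-polysomal pool held gradient fractions 5 to 7, and the polysomal pool held fractions 9 to 11, with more ribosomes on each mRNA. The 4 groups (0 h non-polysomal, 0 h polysomal, 6 h non-polysomal and 6 h polysomal) had 3 arrays each, and each of 3 slides held 1 array of every group. The study calls the 3 samples of a group biological replicates, but no source used here says whether they were separate cultures or gradients, and p-values measure only the spread between these samples, which may be technical. Neither the labels nor the methods name an added interferon or an infection in any group.

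Type I interferon activates a complex with STAT2 and IRF9 that binds interferon-stimulated response elements (ISRE) in promoters, and interferon gamma activates binding to gamma-activated sites (GAS). IRF1 binds ISRE-like sequences as well, and a low level of this signalling, also without infection, sets the resting level of many interferon-stimulated genes in fibroblasts. The products inhibit viral translation (the IFIT proteins), degrade RNA (the OAS enzymes, through RNase L), sense viral RNA (RIG-I and MDA5) or attack the vacuoles of intracellular pathogens (the GTPases). Several encode parts of the pathway itself.

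The promoters (250 bases before to 50 bases after the annotated start, from RefSeq, mouse build GRCm38.p6) were searched on both strands for the ISRE core, spelled GAAANNGAAA, and for the GAS motif, spelled TTCNNNGAA. Of the 36 genes, 28 had a promoter in the table. The ISRE core was found in 17 of these 28 (60.7%), and in 3.99% of all 27025 genes with a promoter. The GAS motif was found in 7 of 28 (25%) and in 9.55% of all genes. Of the 19 genes with a promoter that were called lower in the polysomal pool (defined below), 12 held the ISRE core and 4 the GAS motif, and of the other 9 genes 5 held the ISRE core and 3 the GAS motif, so that genes with these letters were found on both sides. The sites below are shown because they belong to genes on which the results turn: members of the IFIT family, a subunit of the ISRE-binding complex, a gene called lower in both pools (Igtp), one with a higher level in the polysomal pool at 6 h (Bst2), and Isg15, Cxcl10 and Irf1. Capitals mark the match, lower case the 8 bases on either side. Where the capitals start with TTTC the motif reads on the opposite strand. Positions count from the annotated start, which is 0, to the first base of the match.
Ifit1, chr19:34640777-34640802, plus strand, position -104: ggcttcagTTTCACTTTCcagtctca
Ifit1, chr19:34640796-34640821, plus strand, position -85: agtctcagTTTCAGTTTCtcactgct
Ifit3, chr19:34583365-34583390, plus strand, position -156: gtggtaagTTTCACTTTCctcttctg
Ifit3, chr19:34583399-34583424, plus strand, position -122: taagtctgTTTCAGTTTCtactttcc
Stat2, chr10:128270268-128270293, plus strand, position -222: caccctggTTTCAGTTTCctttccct
Isg15, chr4:156200873-156200898, minus strand, position -72: aggaaaagGAAACCGAAAcagaaaat
Igtp, chr11:58199514-58199539, plus strand, position -34: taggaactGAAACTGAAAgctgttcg
Bst2, chr8:71537585-71537610, minus strand, position -130: cattccagGAAAATGAAActgaaagg
Cxcl10, chr5:92349085-92349110, minus strand, position -213: acgctttgGAAAGTGAAActtacctc
Irf1, chr11:53769916-53769940, plus strand, position -90: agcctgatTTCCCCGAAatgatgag
Ifit2, chr19:34550445-34550469, plus strand, position -241: atgggagcTTCCTGGAAgaatggat
The pairs of sites of Ifit1 lie close together, and the 26 bases around both sites of Ifit3 were found letter for letter in the promoter of its near-identical neighbour Ifit3b, at positions -188 and -154 (chr19:34607761-34607786 and chr19:34607795-34607820). A match is a description of letters and not evidence of binding.

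In the polysomal pool, 25 of the 36 genes were called lower at 6 h than at 0 h, which means an adjusted p under 0.05 in the limma fit and a difference of more than 2-fold, and 2 were called higher (Trim25 and Ifi204). Of all probes tested, 5.00% were called lower and 19.2% higher. In the non-polysomal pool 19 of the 36 were called lower and the same 2 higher, where 8.11% of all probes were called lower and 8.12% higher. These counts, and the medians below, include the 4 Ifit genes whose lower levels prompted the question. All 4 were called lower in the polysomal pool, and all but Ifit1 in the non-polysomal pool. With the fold left aside, 29 genes fell in the polysomal pool (11.7% of all probes did), 4 rose (50.7% of all probes) and 3 did not pass the test. In the non-polysomal pool 26 fell (19.6% of all probes), 3 rose (20.6%) and 7 did not pass. Here and below, fell and rose are used for an adjusted p under 0.05. The levels are relative to the spike-ins added to each pool and not per cell, and in bulk RNA fewer cells of a type and less RNA per cell cannot be told apart.

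The median log2 difference between 6 h and 0 h over the 36 genes was -1.80 in the polysomal pool (range -4.26 to 1.70) and -1.18 in the non-polysomal pool (range -3.24 to 1.44). Over all probes the medians were 0.54 and 0.04 (the former 0.05 with the 75th percentile and 0.01 with quantile scaling, described next), so that the polysomal level of most RNAs was higher at 6 h while that of most interferon-stimulated genes was lower. The difference between these medians in the polysomal pool, -2.33, was -2.33 with scaling of each array to its 75th percentile, -2.28 with quantile normalization and -2.59 with a line fitted through the spike-ins array by array. In the non-polysomal pool it was -1.22, and -1.22, -1.16 and -1.19 with these scalings. Every gene called lower was below 0 on each of the 3 slides in the pool concerned, 25 of 25 in the polysomal and 19 of 19 in the non-polysomal pool. The calls came from these same arrays, so this follows largely from the selection and is no separate support. The median over the genes within slides was -1.68, -2.03 and -1.79 in the polysomal pool and -1.09, -1.18 and -1.28 in the non-polysomal pool. With the line through the spike-ins the calls in the polysomal pool were 19 lower and 5 higher in place of 25 and 2. Of all probes, 1.92% were then called lower and 64.0% higher. Other treatments of the background gave fewer calls, 20 lower with the log2 values that the authors deposited, 16 with normexp background correction fitted without non-uniform spots and 2 with normexp fitted to all spots, a fit that went wrong on 3 of the 12 arrays. The shares of all probes called lower were then 2.30%, 1.63% and 0.359%.

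The genes showed 4 patterns. Called lower in both pools were 17: Ifit2, Ifit3, Ifit3b, Usp18, Oasl2, Oas2, Ddx58, Ifih1, Dhx58, Irf1, Irf9, Stat2, Parp14, Rtp4, Igtp, Irgm1 and Iigp1. Called lower in the polysomal pool and not in the other were 8: Ifit1, Rsad2, Cmpk2, Eif2ak2, Ifi44, Xaf1, Gbp3 and Cxcl10. Isg15 and Oas1a were called lower in the non-polysomal pool and not in the polysomal one, and 9 genes were called lower in neither. Since the fold limit parts some of these, the count without it is also given: 25 genes fell in both pools. The shares of all probes with these joint patterns were not counted. Of all probes, 5.00% were called lower in the polysomal and 8.11% in the non-polysomal pool, so at most 5.00% in both. With the fold left aside, 11.7% fell in the polysomal pool, so at most 11.7% in both. The changes in both pools ran together over the 36 genes (Pearson r = 0.79, a description over genes that share arrays), as they did over all probes (r = 0.69).

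**Figure D1:**
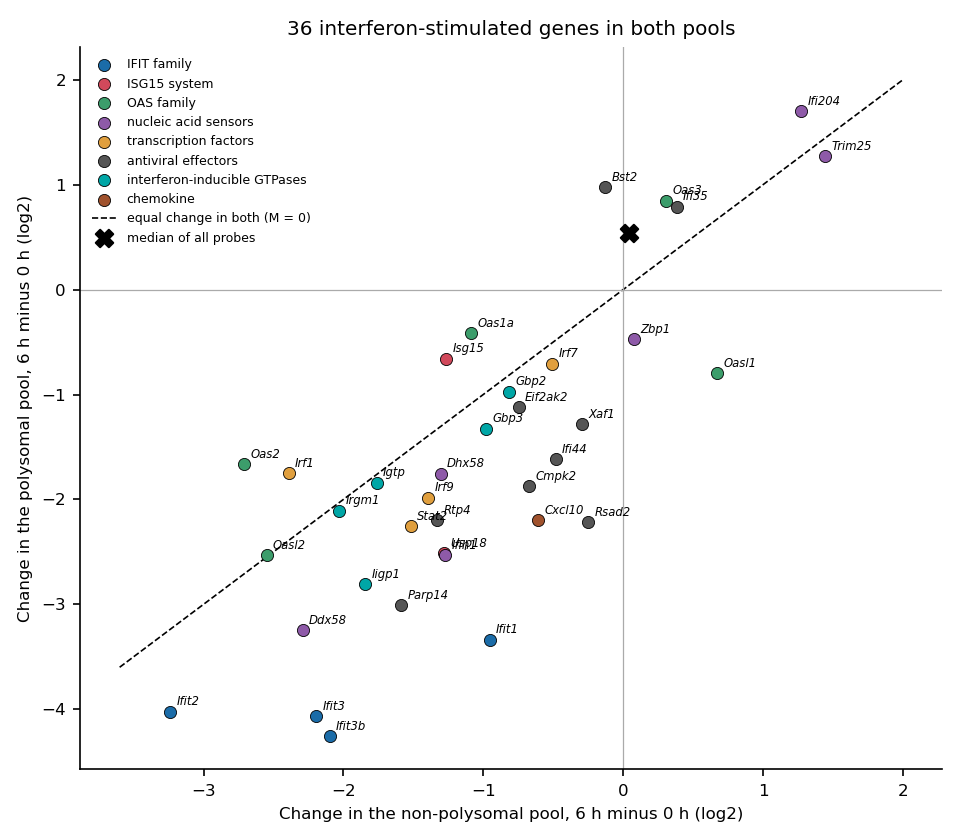
Log2 difference between 6 h and 0 h in the non-polysomal pool (horizontal axis) and in the polysomal pool (vertical axis) for the 36 interferon-stimulated genes, each point the difference of 2 means of 3 arrays, coloured by role. Most genes lie at the lower left, 17 of them called lower in both pools, the IFIT genes lie lowest, and the cross at 0.04 and 0.54 is the median of all probes; genes under the dashed line, where both differences are equal, lost more in the polysomal pool.

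The IFIT proteins bind viral RNA and block its translation. All 4 genes of the family fell in both pools, with median log2 differences of -4.04 (polysomal) and -2.15 (non-polysomal), and the medians were negative under each scaling tried (-3.43 to -4.53 and -2.15 to -2.29). Ifit1 had log2 intensities of 9.30, 9.58 and 9.58 on the 3 polysomal arrays at 0 h and of 6.07, 6.21 and 6.18 at 6 h. In the non-polysomal pool they were 7.06, 7.28 and 7.07 at 0 h and 6.08, 6.22 and 6.25 at 6 h. The 6 h arrays lay below the 0 h arrays in both pools without overlap, and at 6 h the pools overlapped where at 0 h the polysomal pool had been higher. The polysomal level was 10.1-fold lower at 6 h, a log2 difference of -3.34 ± 0.10 (SE, adjusted p = 4.3e-09), and the non-polysomal level 1.94-fold lower, -0.95 ± 0.10 (SE, adjusted p = 2.9e-05).

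Ifit2 had polysomal values of 8.73, 8.95 and 8.82 at 0 h and 4.55, 4.99 and 4.88 at 6 h. Its non-polysomal values were 7.24, 7.39 and 7.25 at 0 h and 4.05, 3.75 and 4.36 at 6 h, with no overlap between the times in either pool. It was 16.3-fold lower in the polysomal pool (-4.02 ± 0.16 (SE, adjusted p = 1.9e-08)) and 9.45-fold lower in the non-polysomal pool (-3.24 ± 0.16 (SE, adjusted p = 1.5e-07)), so that of the family it differed least between the pools. Ifit3 had polysomal values of 12.25, 12.50 and 12.62 at 0 h and 8.46, 8.22 and 8.48 at 6 h. The non-polysomal values of Ifit3 were 10.40, 10.47 and 10.33 and 8.20, 8.15 and 8.25. It lay far lower at 6 h on every array, by 16.8-fold in the polysomal pool (-4.07 ± 0.11 (SE, adjusted p = 2.1e-09)) and 4.58-fold in the other (-2.19 ± 0.11 (SE, adjusted p = 1.5e-07)). Ifit3b had 9.46, 9.68 and 9.64 in the polysomal pool at 0 h and 5.47, 5.26 and 5.28 at 6 h, and 7.29, 7.44 and 7.27 in the non-polysomal pool at 0 h and 5.24, 5.33 and 5.14 at 6 h. This was the gene of the list with the lowest polysomal value of the difference, 19.1-fold lower (-4.26 ± 0.10 (SE, adjusted p = 8.4e-10)), and it was 4.28-fold lower in the non-polysomal pool (-2.10 ± 0.10 (SE, adjusted p = 9.4e-08)). The transcripts of Ifit3 and Ifit3b are nearly the same, and whether a probe of one also binds the other was not checked.

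**Figure D2:**
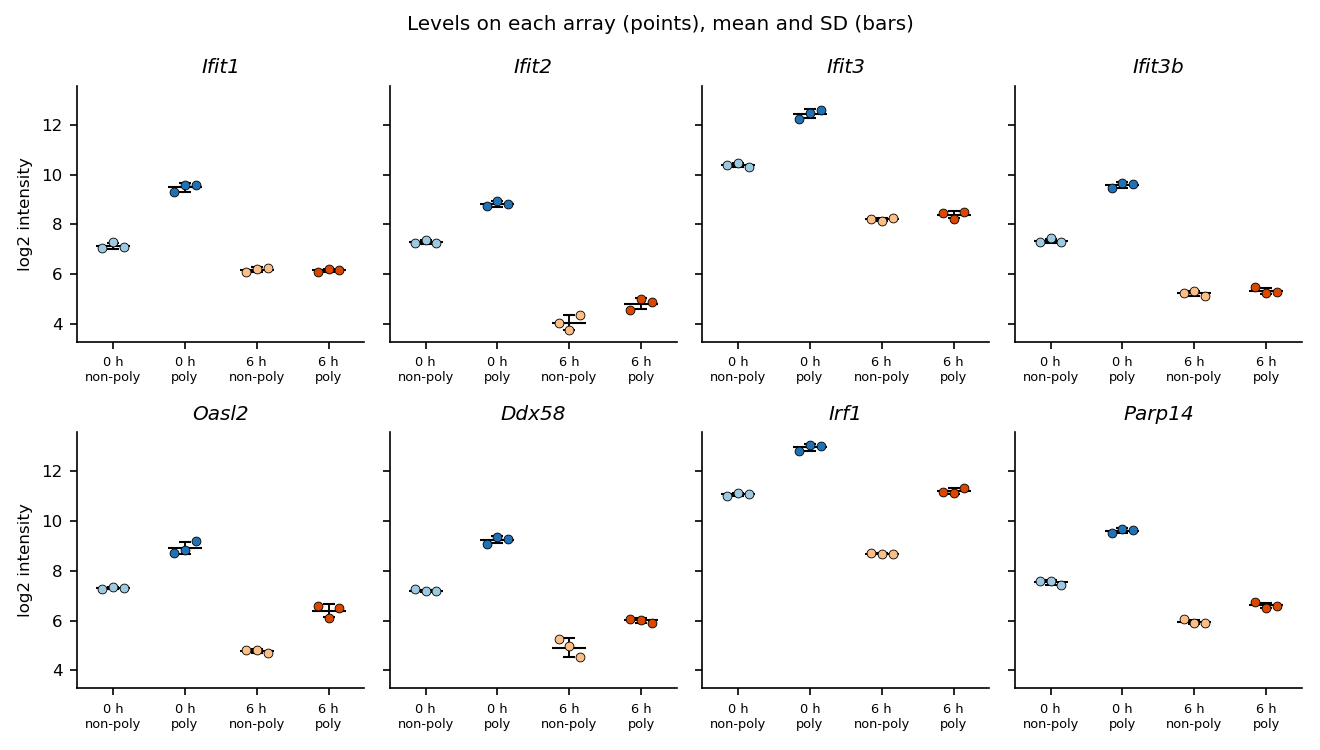
Log2 intensity of 8 interferon-stimulated genes on each of the 12 arrays (points), with the mean and SD of the 3 arrays of a group (bars), for the non-polysomal and polysomal pools at 0 h and 6 h. All 8 genes lie lower at 6 h than at 0 h in both pools; in the IFIT genes apart from Ifit2 the pools come to about the same level at 6 h, while in Oasl2 and Irf1 the polysomal pool stays above the other at both times.

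ISG15 is a ubiquitin-like protein that is attached to other proteins, and USP18 removes it and also dampens signalling from the type I receptor. Usp18 had polysomal values of 7.93, 7.95 and 8.04 at 0 h and 5.47, 5.28 and 5.63 at 6 h, and non-polysomal values of 5.37, 5.44 and 5.20 and 4.75, 3.85 and 3.56. The times did not overlap in either pool, although the 6 h non-polysomal arrays were spread widely (SD 0.62). It was 5.72-fold lower in the polysomal pool (-2.52 ± 0.25 (SE, adjusted p = 1.2e-05)) and 2.43-fold lower in the non-polysomal pool (-1.28 ± 0.25 (SE, adjusted p = 0.0019)). Isg15 had polysomal values of 9.37, 9.52 and 9.56 at 0 h and 8.78, 8.82 and 8.88 at 6 h. In the other pool it read 8.19, 8.34 and 8.22 and 6.97, 7.03 and 6.96. All 6 h arrays lay below the 0 h arrays, but by less in the polysomal pool (1.58-fold, -0.66 ± 0.08 (SE, adjusted p = 3.6e-05)) than in the non-polysomal pool (2.40-fold, -1.26 ± 0.08 (SE, adjusted p = 5.1e-07)). With the line through the spike-ins the polysomal value of Isg15 was -0.16 and did not pass the test.

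The OAS enzymes make the oligoadenylates that activate RNase L, and the OAS-like proteins are their relatives. Of the 5 genes, 2 were called lower in the polysomal pool and 3 in the non-polysomal pool. The median polysomal difference of the 5, -0.80, turned to 0.26 with the line through the spike-ins, and the non-polysomal median, -1.09, lay between -1.04 and -1.27 under the scalings. Oasl2 had polysomal values of 8.74, 8.84 and 9.20 at 0 h and 6.59, 6.10 and 6.51 at 6 h. Its non-polysomal values were 7.29, 7.36 and 7.31 and 4.82, 4.81 and 4.68. Both pools were lower at 6 h on every array, by 5.78-fold in the polysomal pool (-2.53 ± 0.15 (SE, adjusted p = 2.3e-07)) and 5.86-fold in the other (-2.55 ± 0.15 (SE, adjusted p = 4.1e-07)).

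Oas2 lay near the background. It read 3.95, 4.25 and 3.96 in the non-polysomal pool at 0 h and 0.90, 2.11 and 1.01 at 6 h, where no array was well above background, and 4.13, 4.52 and 4.66 in the polysomal pool at 0 h and 3.63, 1.58 and 3.10 at 6 h, where 1 of 3 was. The times did not overlap in either pool, and the non-polysomal level was at least 6.54-fold lower at 6 h (adjusted p = 0.0011). The bound sets each dim array at its own signal or at the lowest signal rated well above background, whichever was higher. For Oas2 the bound equals the measured fold (-2.71 ± 0.49 (SE)), so it carries the same error and is no firm limit. The polysomal level was 3.17-fold lower (-1.67 ± 0.49 (SE, adjusted p = 0.014)), which no longer passed the test with the line through the spike-ins (-0.73, adjusted p = 0.12), with the log2 values of the authors (-0.12, adjusted p = 0.21) or without the slide of replicate 3 (adjusted p = 0.095). A second, dimmer probe of Oas2 read 0.39. Oas1a had polysomal values of 5.94, 6.12 and 6.23 at 0 h and 5.62, 5.68 and 5.74 at 6 h, and non-polysomal values of 4.98, 4.43 and 4.58 and 3.87, 3.42 and 3.42. The arrays of the 2 times did not overlap in either pool, but only the non-polysomal difference passed the test (2.13-fold lower, -1.09 ± 0.16 (SE, adjusted p = 0.00034), and under the fold limit, at -0.93, without replicate 1 of the 0 h non-polysomal pool), and the polysomal one was -0.41 (adjusted p = 0.051). Oas3 was not well above background on any array. Oasl1, whose product holds back the translation of Irf7 mRNA, was so on 1 array of the 0 h polysomal pool, and neither gene passed a test.

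Among the nucleic acid sensors, the 3 RIG-I-like receptors were called lower in both pools, while Trim25 and Ifi204 were called higher in both. The median of the 6 genes was -1.11 in the polysomal and -0.60 in the non-polysomal pool, negative under each scaling. Ddx58 encodes RIG-I, the sensor of viral RNA ends. Its polysomal values were 9.09, 9.37 and 9.30 at 0 h and 6.08, 6.03 and 5.90 at 6 h, and its non-polysomal values 7.25, 7.19 and 7.19 and 5.26, 4.97 and 4.54. No 6 h array came near the 0 h arrays, and the level was 9.48-fold lower in the polysomal pool (-3.25 ± 0.16 (SE, adjusted p = 7.5e-08)) and 4.89-fold lower in the other (-2.29 ± 0.16 (SE, adjusted p = 1.4e-06)). The 4 probes of Ddx58, of which 2 were well above background on all 12 arrays, gave polysomal differences from -3.25 to -1.20 and non-polysomal ones from -2.29 to 0.04. Ifih1, which encodes MDA5, the sensor of long double-stranded RNA, had polysomal values of 6.66, 6.95 and 7.02 at 0 h and 4.63, 3.87 and 4.53 at 6 h. In the non-polysomal pool it read 4.55, 4.77 and 4.83 and 3.39, 3.43 and 3.52, again without overlap. It was 5.79-fold lower in the polysomal pool (-2.53 ± 0.19 (SE, adjusted p = 1.3e-06)) and 2.42-fold lower in the non-polysomal pool (-1.27 ± 0.19 (SE, adjusted p = 0.00029)). Dhx58, which encodes LGP2, a relative that modulates both, had polysomal values of 8.40, 8.85 and 8.86 and 6.93, 6.92 and 6.99 and non-polysomal values of 6.16, 6.31 and 6.26 and 4.73, 5.17 and 4.91. The times were apart in both pools, by 3.37-fold (-1.75 ± 0.14 (SE, adjusted p = 2.6e-06)) and 2.47-fold (-1.31 ± 0.14 (SE, adjusted p = 3.3e-05)).

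Trim25, a ubiquitin ligase that activates RIG-I, moved the other way. Its polysomal values were 10.50, 10.66 and 10.63 at 0 h and 11.87, 11.84 and 11.90 at 6 h, and its non-polysomal values 9.32, 9.37 and 9.29 and 10.75, 10.73 and 10.82. Every 6 h array was above every 0 h array, 2.42-fold in the polysomal pool (1.28 ± 0.07 (SE, adjusted p = 1e-07)) and 2.72-fold in the other (1.44 ± 0.07 (SE, adjusted p = 9.5e-08)). Ifi204, a DNA-binding protein of the IFI16 family, had polysomal values of 11.77, 11.93 and 11.92 and 13.54, 13.52 and 13.65 and non-polysomal values of 10.54, 10.45 and 10.34 and 11.78, 11.73 and 11.63. It too was higher without overlap, 3.25-fold (1.70 ± 0.08 (SE, adjusted p = 6.8e-08)) and 2.42-fold (1.27 ± 0.08 (SE, adjusted p = 8.4e-07)), but it is one of several closely related genes, and binding of their RNA to its probes was not checked. Zbp1, which senses Z-form nucleic acids, was -0.47 in the polysomal pool (adjusted p = 0.03), which no longer passed without 5 of the single arrays in turn (adjusted p up to 0.11) and turned to 0.33 with the line through the spike-ins, and 0.07 in the non-polysomal pool (adjusted p = 0.79).

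Of the transcription factors, Stat2 and Irf9 encode subunits of the ISRE-binding complex, Irf1 an activator that acts downstream of both interferon types, and Irf7 the factor that amplifies type I interferon production. All 4 fell in both pools, with medians of -1.87 and -1.46, and this direction was kept under each scaling. Irf1 had polysomal values of 12.82, 13.06 and 13.03 at 0 h and 11.19, 11.13 and 11.33 at 6 h. Its non-polysomal values were 11.03, 11.15 and 11.08 and 8.73, 8.69 and 8.67. It was lower on every 6 h array, by 3.37-fold in the polysomal pool (-1.75 ± 0.09 (SE, adjusted p = 6.9e-08)) and by more, 5.25-fold, in the non-polysomal pool (-2.39 ± 0.09 (SE, adjusted p = 2.3e-08)). Stat2 had polysomal values of 9.90, 10.03 and 10.07 and 7.82, 7.64 and 7.77, and non-polysomal values of 8.28, 8.32 and 8.26 and 6.84, 6.73 and 6.73. The times were apart in both pools, by 4.77-fold (-2.25 ± 0.08 (SE, adjusted p = 7.8e-09)) and 2.87-fold (-1.52 ± 0.08 (SE, adjusted p = 1.7e-07)). Irf9 had polysomal values of 10.65, 10.91 and 10.80 and 8.82, 8.77 and 8.82, and non-polysomal values of 9.62, 9.67 and 9.57 and 8.22, 8.25 and 8.21. It was lower on all 6 h arrays as well, by 3.95-fold (-1.98 ± 0.08 (SE, adjusted p = 1.5e-08)) and 2.63-fold (-1.39 ± 0.08 (SE, adjusted p = 2.8e-07)). Irf7 fell by less than 2-fold, with -0.70 in the polysomal and -0.51 in the non-polysomal pool (adjusted p = 0.00038 and 0.0042), and its polysomal value was -0.01 with the line through the spike-ins.

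Of the 11 other antiviral effectors, 9 had a probe; 7 of them were called lower in the polysomal pool and 2 in the non-polysomal pool, with medians of -1.62 and -0.48 that were negative under each scaling. Parp14 encodes a mono-ADP-ribosyltransferase. Its polysomal values were 9.51, 9.70 and 9.66 at 0 h and 6.74, 6.51 and 6.60 at 6 h, and its non-polysomal values 7.61, 7.58 and 7.43 and 6.06, 5.89 and 5.91. The times were far apart in both pools, by 8.05-fold (-3.01 ± 0.09 (SE, adjusted p = 4.4e-09)) and 3.00-fold (-1.59 ± 0.09 (SE, adjusted p = 4.3e-07)). Rtp4, a receptor transporter protein with antiviral activity, had polysomal values of 10.27, 10.43 and 10.54 and 8.10, 8.21 and 8.31, and non-polysomal values of 9.63, 9.56 and 9.53 and 8.32, 8.26 and 8.16. It lay lower at 6 h on every array, by 4.60-fold (-2.20 ± 0.09 (SE, adjusted p = 2.3e-08)) and 2.51-fold (-1.33 ± 0.09 (SE, adjusted p = 1.2e-06)), and at 6 h its pools overlapped.

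Cmpk2, a mitochondrial nucleotide kinase, and Rsad2, which encodes viperin, lie next to each other in the genome and were both dim. Cmpk2 was well above background on all arrays of the 0 h polysomal pool (3.96, 3.98 and 3.98) and on no other array, with 2.00, 1.64 and 2.67 in the polysomal pool at 6 h and 1.94, 0.99 and 1.77 and 0.86, 0.76 and 1.06 in the non-polysomal pool at 0 h and 6 h. Its polysomal level was at least 3.66-fold lower at 6 h (adjusted p = 0.00026), without overlap, but with the log2 values of the authors the difference was -0.04 (adjusted p = 0.63), and a second probe, well above background on no array, read 0.44. The bound of Cmpk2 equals its measured fold (-1.87 ± 0.28 (SE)) and carries the same error. The probe that represents Rsad2 was well above background on 2 of the 3 polysomal arrays at 0 h and on no other. By this probe the polysomal level was at least 4.30-fold lower at 6 h (adjusted p = 0.0012). With the log2 values of the authors the difference was -0.08 (adjusted p = 0.52). A further probe of Rsad2 was well above background on as many arrays. Another of its 3 probes than the representative read 2.10 in the polysomal comparison, and their mean read 0.17 (adjusted p = 0.65). For both genes the non-polysomal pool was not well above background at either time and no fold is given there. Eif2ak2, the RNA-activated kinase PKR, was 2.17-fold lower in the polysomal pool (-1.12 ± 0.10 (SE, adjusted p = 5.9e-06)) and 1.68-fold lower in the other (-0.75 ± 0.10 (SE, adjusted p = 0.00016)). Ifi44, a cytoplasmic interferon-induced protein, was 3.07-fold lower in the polysomal pool (-1.62 ± 0.23 (SE, adjusted p = 0.00016)) and -0.48 in the other (adjusted p = 0.14). Xaf1, a partner of the apoptosis inhibitor XIAP, was 2.43-fold lower in the polysomal pool (-1.28 ± 0.08 (SE, adjusted p = 4.7e-07)) and 1.23-fold lower in the non-polysomal pool (adjusted p = 0.015), the latter lost without either of 2 single arrays (adjusted p up to 0.065).

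Bst2 and Ifi35 did not follow. Bst2 encodes tetherin, which holds budding viruses at the cell surface. Its polysomal values were 12.48, 12.73 and 12.66 at 0 h and 13.49, 13.65 and 13.66 at 6 h, and its non-polysomal values 12.75, 12.98 and 12.86 and 12.80, 12.68 and 12.72. The polysomal arrays were higher at 6 h without overlap, 1.97-fold (0.98 ± 0.09 (SE, adjusted p = 9e-06)), and the non-polysomal arrays overlapped (-0.13, adjusted p = 0.35). Ifi35, which forms a complex with Nmi, rose by 0.79 in the polysomal pool and by 0.38 in the non-polysomal pool (adjusted p = 6.9e-05 and 0.01). With quantile normalization neither polysomal value passed the test.

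The interferon-inducible GTPases gather on the vacuoles of intracellular pathogens. All 5 fell in both pools, with medians of -1.84 and -1.76 that were negative under each scaling, and 4 were called lower in the polysomal and 3 in the non-polysomal pool. Irgm1 had polysomal values of 9.77, 10.10 and 9.95 at 0 h and 7.85, 7.72 and 7.92 at 6 h. Its non-polysomal values were 8.82, 8.83 and 8.73 and 6.77, 6.71 and 6.81. The times were apart, with levels 4.31-fold lower in the polysomal (-2.11 ± 0.09 (SE, adjusted p = 3.8e-08)) and 4.09-fold lower in the non-polysomal pool (-2.03 ± 0.09 (SE, adjusted p = 9.9e-08)). Igtp had polysomal values of 9.75, 10.05 and 10.10 and 8.15, 8.04 and 8.19, and non-polysomal values of 8.23, 8.29 and 8.21 and 6.54, 6.48 and 6.42. Its times were apart as well, with levels 3.58-fold lower (-1.84 ± 0.10 (SE, adjusted p = 1.2e-07)) and 3.39-fold lower (-1.76 ± 0.10 (SE, adjusted p = 3e-07)). For both genes the factors in the pools were this close only with the spike-in offset, and the M-values below give them under other scalings. Iigp1 had polysomal values of 6.62, 6.95 and 7.04 at 0 h and 3.70, 4.32 and 4.16 at 6 h, where 2 of 3 arrays were well above background, and non-polysomal values of 4.45, 4.72 and 3.67 and, on 3 arrays not well above background, 3.08, 3.11 and 1.10. It was 7.00-fold lower in the polysomal pool (-2.81 ± 0.50 (SE, adjusted p = 0.00083)) and at least 3.60-fold lower in the non-polysomal pool (adjusted p = 0.013), the latter lost without replicate 2 of the 0 h non-polysomal pool (-1.63, adjusted p = 0.050). This bound also equals the measured fold (-1.85 ± 0.50 (SE)) and carries the same error. The guanylate-binding proteins Gbp3 (-1.33 and -0.98 in the polysomal and non-polysomal pool) and Gbp2 (-0.97 and -0.82) fell less.

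Cxcl10, the chemokine that draws activated T cells, had polysomal values of 5.73, 6.19 and 6.26 at 0 h and 4.00, 3.71 and 3.89 at 6 h, where 2 of 3 arrays were well above background. Its non-polysomal values were 6.45, 6.33 and 6.24 and 5.65, 5.87 and 5.67. The times did not overlap in either pool, but the polysomal level was 4.58-fold lower (-2.20 ± 0.14 (SE, adjusted p = 5.3e-07)) against 1.52-fold in the other pool (-0.61 ± 0.14 (SE, adjusted p = 0.0062)).

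**Figure D3:**
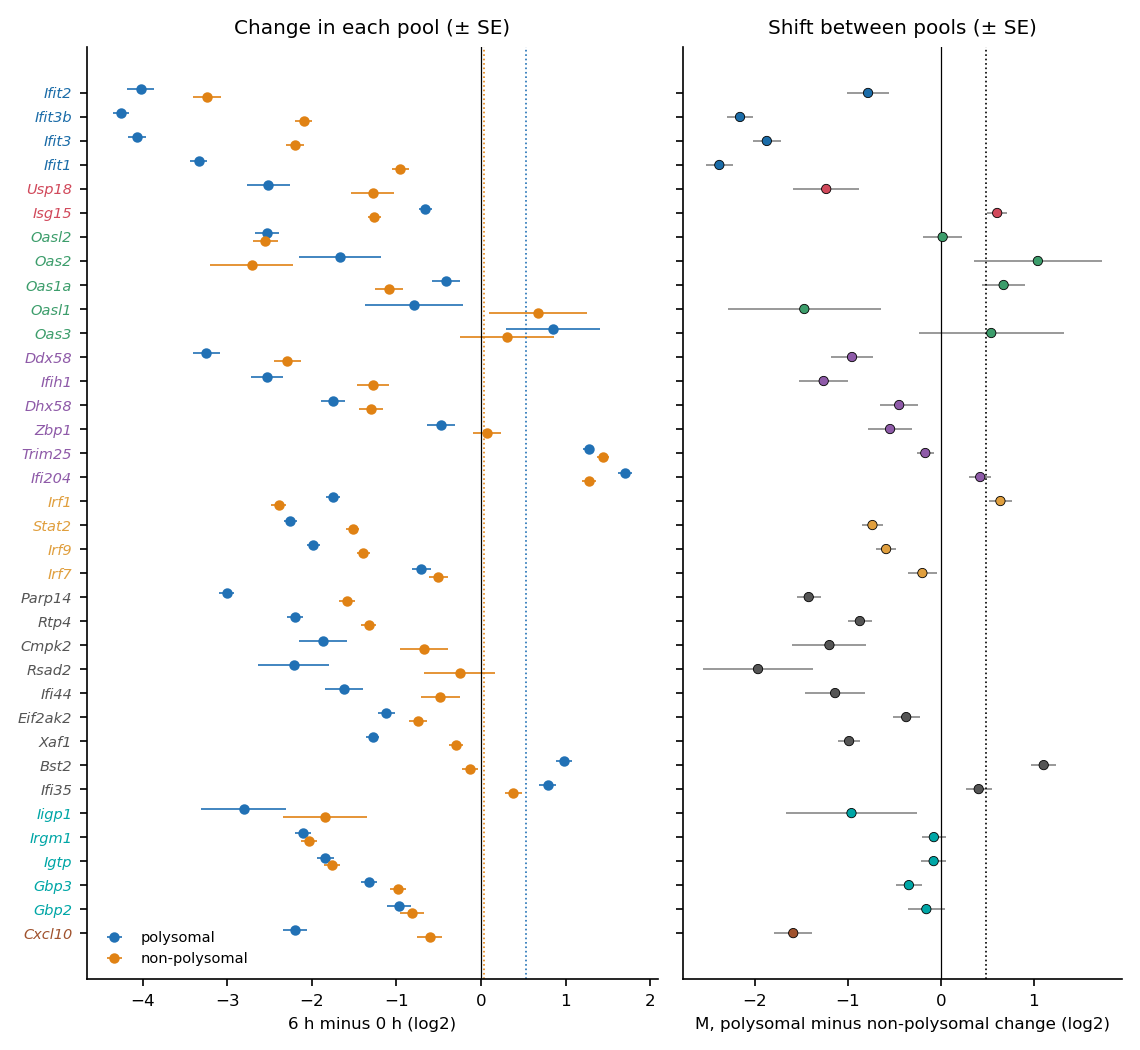
Left, the log2 difference between 6 h and 0 h (± SE of the limma fit, n = 3 arrays a group) of the 36 genes in the polysomal (blue) and non-polysomal (orange) pool; right, M, the polysomal minus the non-polysomal difference (± SE); dotted lines mark the median of all probes. The points of most genes lie left of 0 in both pools, while M ranges from -2.38 (Ifit1) to 1.11 (Bst2), with the GTPases Irgm1 and Igtp close to 0 with this scaling.

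The pools were compared by the M-value, the polysomal difference between 6 h and 0 h minus the non-polysomal one. A negative M means that the polysomal level fell relative to the non-polysomal level, and an M near 0 that both moved by a similar factor. A move of RNA between the pools and an unequal loss within them cannot be told apart by it. M was called lower for 10 of the 36 genes (1.32% of all probes) and higher for 1 gene, Bst2 (12.1% of all probes). With the fold left aside it was below 0 for 16 genes (4.01% of all probes), above 0 for 6 (32.0%) and not past the test for 14. The median M was -0.57 over the genes and 0.49 over all probes, and 30 of the 36 genes had an M below the median of all probes. All 10 called genes were below 0 on each of the 3 slides, which again follows largely from calling them on the same arrays. Within slides the medians over the 36 genes were -0.37, -0.75 and -0.39 and those over all probes 0.41, 0.64 and 0.42.

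The 3 IFIT genes apart from Ifit2 had M-values far below 0. M was -2.38 ± 0.14 (SE) for Ifit1, -2.16 ± 0.14 for Ifit3b and -1.87 ± 0.15 for Ifit3, with adjusted p-values of 3.8e-06, 4.4e-06 and 1.9e-05, and -0.78 ± 0.23 for Ifit2 (adjusted p = 0.023). In Ifit1 the polysomal level was 10.1-fold lower and the non-polysomal level 1.94-fold lower, so that most of the difference lay in the polysomal pool. Cxcl10 (-1.59 ± 0.20), Parp14 (-1.42 ± 0.13), Ifih1 (-1.26 ± 0.27), Usp18 (-1.23 ± 0.36) and Ifi44 (-1.14 ± 0.32) were also called lower, with adjusted p-values of 0.00025, 3.9e-05, 0.0045, 0.022 and 0.021. Rsad2 (-1.97, adjusted p = 0.028) and Cmpk2 (-1.20, adjusted p = 0.041) completed the 10, but their M rests on values that were not well above background. Xaf1 lay just inside the fold limit, with -0.99 ± 0.12 (adjusted p = 0.00016). Single arrays decided 4 of the 10. The M of Usp18 was -0.89 without replicate 1 of the 6 h non-polysomal pool, and its adjusted p was 0.052 without replicate 2 of the 6 h polysomal pool. That of Ifi44 went under the fold limit, to -0.92, -0.99 and -0.95, without replicate 1 of the 0 h non-polysomal, replicate 3 of the 0 h polysomal and replicate 2 of the 6 h polysomal pool. Leaving out 6 of the 12 arrays in turn ended the call of Rsad2 (adjusted p up to 0.064), and leaving out 9 of them ended that of Cmpk2 (adjusted p up to 0.084).

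Of the 17 genes called lower in both pools, 5 also had an M called lower (Ifit3, Ifit3b, Usp18, Ifih1 and Parp14) and another 5 an M below 0 by less than 2-fold: Ifit2, Ddx58 (-0.96 ± 0.23), Rtp4 (-0.87 ± 0.13), Stat2 (-0.74 ± 0.11) and Irf9 (-0.59 ± 0.11). For 6 the M-value did not pass the test: Oasl2 (0.02 ± 0.21), Irgm1 (-0.08 ± 0.13), Igtp (-0.08 ± 0.14), Dhx58 (-0.45 ± 0.20), Iigp1 (-0.96 ± 0.71) and Oas2 (1.04 ± 0.69). The first 3 depended on the scaling. With the 75th percentile M passed the test below 0 for Irgm1 (-0.50, adjusted p = 0.00086) and Igtp (-0.50, adjusted p = 0.0017), as it did with quantile normalization (-0.30, adjusted p = 0.011, and -0.33, adjusted p = 0.014). With the line through the spike-ins it passed above 0 for Oasl2 (0.84, adjusted p = 0.00082) and read 0.61 for Irgm1 and 0.60 for Igtp. The errors of Iigp1 and Oas2 were wide. Of the genes outside these 17, another 8 did not pass, from -0.55 (Zbp1) to -0.16 (Gbp2) apart from the dim Oasl1 (-1.47) and Oas3 (0.54). Irf1 had an M above 0, 0.64 ± 0.12 (adjusted p = 0.0024), as its non-polysomal level fell by more. Also above 0 were the M-values of Isg15 (0.61 ± 0.11), Oas1a (0.68 ± 0.23), Ifi204 (0.42 ± 0.12) and Ifi35 (0.41 ± 0.14), of which that of Oas1a no longer passed the test when any one of 10 arrays was left out (adjusted p up to 0.10) and that of Ifi35 when any one of 11 was (up to 0.10). Bst2 had the highest M, 1.11 ± 0.13 (adjusted p = 0.00017).

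Relative to the spike-ins, most of these genes had a higher level in the polysomal than in the non-polysomal pool at 0 h. Of the 36 genes, 28 were called higher in the polysomal than in the non-polysomal pool and 0 lower, with a median of 1.67, while 27.3% of all probes were called higher and 9.83% lower, with a median of 0.15. At 6 h 19 were called higher and 2 lower (Xaf1 and Cxcl10), with a median of 1.08, while 37.3% of all probes were called higher and 6.42% lower, with a median of 0.68. The excess in the polysomal pool was smaller at 6 h for 27 of the 36 genes. By definition these are the genes with an M below 0, so this is no separate result. Of all probes, 19.2% had an M below 0. With the line through the spike-ins 15 of the 36 genes did. In the IFIT family the median excess went from 2.16 to 0.14, and the excess no longer passed the test for Ifit1 (-0.03), Ifit3 (0.19) and Ifit3b (0.10). For Xaf1 it went from -0.24 to -1.22 and for Cxcl10 from -0.28 to -1.86, so that both were lower in the polysomal pool at 6 h. Irf1, in contrast, went from 1.88 to 2.52. These levels relative to the other pool depend on the scaling: with the 75th percentile 13 genes were called higher and 3 lower at 0 h and 2 higher and 9 lower at 6 h, with quantile normalization 18 and 1 at 0 h and 4 and 4 at 6 h, and with the line 28 and 0 at both times. Of all probes, 11.6% were called higher and 26.7% lower at 0 h with the 75th percentile, and 12.3% and 22.2% at 6 h. With quantile normalization the shares were 16.9% and 14.1% at 0 h and 15.6% and 13.6% at 6 h. With the line they were 25.8% and 11.0% at 0 h and 75.9% and 3.69% at 6 h.

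**Figure D4:**
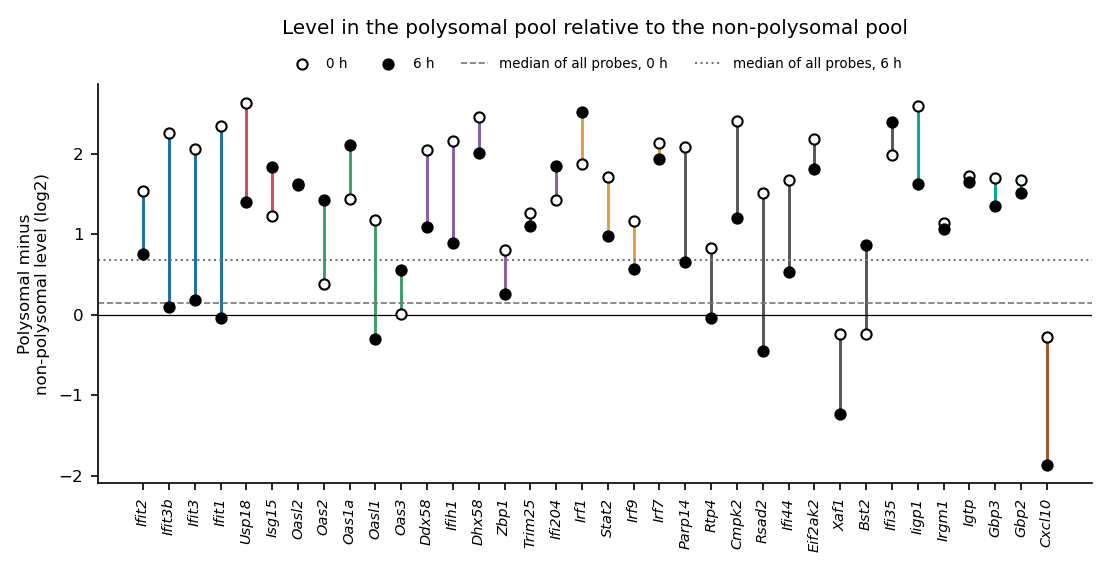
Polysomal minus non-polysomal log2 level of the 36 genes at 0 h (open circles) and 6 h (filled circles), in groups coloured by role; horizontal lines mark the medians of all probes at 0 h (dashed, 0.15) and 6 h (dotted, 0.68). The filled circle lies below the open one in the 27 genes with an M below 0, by most in Ifit1 (2.35 at 0 h, -0.03 at 6 h), and above it in Irf1, Isg15 and Bst2 among others.

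Where the zero of M lies depends on the scaling as well. The spike-in offsets were -0.48 to -0.21 on the polysomal arrays at 6 h and 0.05 to 0.18 on the other 9 arrays. The median M of all probes was 0.49 with the mean of the spike-ins, 0.06 with the 75th percentile, -0.0007 with quantile normalization and 1.42 with a line through the spike-ins. The median M of the 36 genes minus that of all probes was -1.05, -1.05, -0.87 and -1.25. The sign of M was less stable: M was below 0 for 27, 29, 30 and 15 of the 36 genes under these 4 scalings. M was called lower for 10, 16, 14 and 3 genes (1.32%, 3.48%, 3.82% and 0.139% of all probes). It was called higher for 1, 0, 0 and 5 genes (12.1%, 3.75%, 3.08% and 63.4% of all probes). With the line through the spike-ins the median M of the IFIT family was still -1.30 and that of the antiviral effectors -0.17, while the medians turned positive for the ISG15 system (0.45), the sensors (0.27), the transcription factors (0.33) and the GTPases (0.60). The M-values of Ifit1, Ifit3, Ifit3b, Parp14, Cxcl10 and Bst2 kept their sign and passed the test under each of these 4 scalings and with any single array left out, although M of Cxcl10 was -0.08 (adjusted p = 0.53) with normexp fitted without non-uniform spots, and normexp fitted to all spots turned 4 of the 6.

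**Figure D5:**
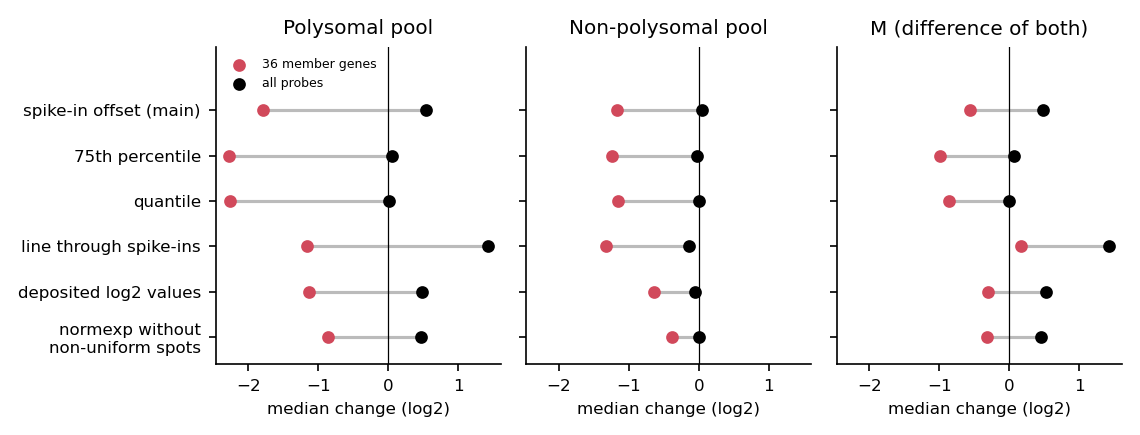
Median log2 difference of the 36 interferon-stimulated genes (red) and of all probes (black) in the polysomal pool, the non-polysomal pool and M, under 4 scalings between arrays and 2 other starting values. The red point lies left of the black one in every row and panel, while the place of both relative to 0 shifts; in the panel of M the red point is right of 0 with the line through the spike-ins (0.17).

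A list of 30 genes that carry or induce the interferon signal was set beside these, 25 of them well above background on all arrays of a group. In the polysomal pool 2 were called lower (5.00% of all probes) and 8 higher (19.2%), and in the non-polysomal pool 5 lower (8.11%) and 3 higher (8.12%). The medians were 0.51 and 0.01, near those of all probes. The roles differed: the 9 factors upstream of interferon (sensors, adaptors, kinases and Irf3, which lead to its production) had a median of 0.05 in the polysomal pool but of -0.96 in the non-polysomal pool (-1.09 to -0.96 over the 4 scalings), where 7 of the 9 were below 0 and Tlr3, Tlr4, Ticam1 and Tmem173 were called lower. Of the 6 interferon genes on this list, Ifnb1, Ifna4 and Ifnk were well above background on no array of any group. With 25 of the 30 genes well above background in a full group, this cannot hold for all 6. The levels of Ifna2, Ifng and Ifnl3 are not given here. The receptor chains for type I interferon read 0.68 (Ifnar1) and 0.65 (Ifnar2) in the polysomal pool and -0.00 and -0.20 in the non-polysomal pool, and those for interferon gamma 1.19 and 0.68 (Ifngr1) and 1.72 and 1.42 (Ifngr2). The receptors that were called lower in both pools were those for bacterial lipopolysaccharide, Tlr4 (-2.91 and -2.72), and for double-stranded RNA, Tlr3, which was at least 4.62-fold lower in the polysomal pool and 3.26-fold lower in the other, where 1 of 3 arrays at 6 h was well above background. The inhibitors of JAK kinases Socs1 (1.90 and 1.11) and Socs3 (2.19 and 1.01) were called higher in both pools.

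A further list of 47 interferon-stimulated genes, 44 with a probe, was read in the same way. Of these, 8 were called lower and 6 higher in the polysomal pool and 12 lower and 3 higher in the non-polysomal pool, with medians of 0.45 and -0.28, where the shares of all probes were 5.00% and 19.2% and then 8.11% and 8.12%. M was called lower for 1, Ifi47 (1.32% of all probes), and higher for 14 (12.1%). Genes that went with the 36 were the GTPase genes Ifi47 and Gbp7, whose 6 h signals were well above background on 0 arrays and which were at least 11.4-fold and 7.46-fold lower in the polysomal pool, and Nmi, Trim30a, Parp9, Herc6 and Parp12, with polysomal differences from -1.85 to -1.26 and non-polysomal ones from -2.16 to -1.57. The 12 genes of antigen presentation did not, with a median of 0.69 in the polysomal pool (-0.33 with quantile normalization) and -0.26 in the non-polysomal pool. Of these, Tap1, a subunit of the peptide transporter, was called lower in both pools (-1.22 and -1.77). The 3 Ifitm genes, whose products block virus entry, had M-values from 1.09 to 1.80, all called higher, as was Bst2. Samhd1, a nucleotide hydrolase that starves retroviruses (2.33 and 1.79), Slfn2 (2.60 and 2.34) and the chemokine gene Ccl5 (1.54 and 1.20) were called higher in both pools.

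The arrays were alike in quality. Of the probes, 55.7% to 60.9% were well above background on each array, replicate arrays of a group correlated at 0.985 to 0.992, and no spot was saturated. All 10 fibroblast and preadipocyte markers were well above background in every group. Of 8 leukocyte and macrophage markers with a probe, 3 (Csf1r, Cd14 and Cd3e) were well above background in each group, while Ptprc, Adgre1, Itgam, Tyrobp and Laptm5 were not so on all arrays of any group. The summed intensity of the 8 was 475 to 550.3 and 904 to 1052 in the non-polysomal and polysomal pools at 0 h, and 1111 to 1168 and 2719 to 2776 at 6 h. Such a sum can rest on few of the 8 genes, and whether the mix of cells changed was not tested. Of 4 endothelial markers none was well above background in 3 of the groups and 1 in the 6 h polysomal pool. Of 7 mature adipocyte markers, 4 were well above background on all 3 arrays of every group, while Lep and Cfd were so in no full group. The summed intensity of the 7 was 20194.5 to 20822 and 42909 to 51444 in the non-polysomal and polysomal pools at 0 h. At 6 h it was 18920 to 19430 and 87757 to 96810.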

How the data were processed

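RNA of 4 groups of 3T3-L1 gradient pools was hybridised to 12 one-colour Agilent arrays of 45018 spots (1639 of them control spots), an equal mass of total RNA for each array, per the labels, with a viral spike-in added to each pool before its RNA was extracted. The deposited scanner files hold, per the file headers, a Cy3 intensity for each spot from which Feature Extraction had removed background and spatial trend, with no normalization between arrays. The authors also deposited log2 values, found here to be the log2 median pixel intensity of a probe plus a constant for each array (column medians 5.43 to 6.07, difference from the median pixel -0.17 to 0.41); their centring beyond that constant is not stated.

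The processed intensity was taken to log2, outlier spots were left out (484 probe values were then missing), spots of a probe were averaged, and the mean of 10 spike-in transcripts was subtracted from each array after centring. Samples were grouped by the labels, 3 arrays each. All 12 arrays were fitted together with limma 3.58.1 (lmFit and eBayes, R 4.3.3), with Benjamini-Hochberg adjustment over all 41174 non-control probes and a call at an adjusted p under 0.05 and more than 2-fold. The M-value is the polysomal minus the non-polysomal change. A gene is represented by its probe that was well above background on the most arrays, then by the highest mean signal. Accessions were named through RefSeq (26690 probes, 64.8%). Values on each array are given for the IFIT family and, in the other role groups, for up to 3 genes with the largest mean change over both pools, and genes that moved against their group are named. The 36 genes and the other lists were chosen with earlier results of these data known. A gene on each of 2 other lists is not reported here and was left out of their counts. Of the 36, 33 were well above background on every array of at least 1 group.

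The precision is limited by the 3 arrays a group. Simulated data of 40808 probes had 50 changed probes at each fold. In the polysomal comparison 28% of 2-fold, 74% of 3-fold and 86% of 4-fold changes were called, and 30%, 64% and 74% for M. A 2-fold change lies at the fold limit of a call itself, and 58% of these passed the adjusted p (42% for M). Far fewer probes changed in the simulation than in the data, which makes the adjustment stricter. These shares are therefore not the sensitivity in the real data. The alternatives were other scalings (75th percentile, quantile, a line through the spike-ins), normexp background correction (offset 50, on the median pixel), the deposited log2 values, no dim probes, outliers kept, a replicate block, the mean of a gene's probes, and leaving out each array or slide. A normexp fit without non-uniform spots was added after seeing the data, because the fit to all spots gave background spreads of 705, 702 and 81.7 on 3 arrays and of at most 1.20 on the others.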

Additional observations from a re-analysis of the deposited data

Results flagged for a closer look

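The change between 0 h and 6 h differed between the pools by the test of the difference itself, with an M-value past both limits, for 11 of the 36 genes. M was below 0 for 10 of them: -2.38 for Ifit1, -2.16 for Ifit3b and -1.87 for Ifit3 in the IFIT family, -1.97 for Rsad2, -1.42 for Parp14, -1.20 for Cmpk2 and -1.14 for Ifi44 among the antiviral effectors, -1.59 for Cxcl10, -1.26 for Ifih1 and -1.23 for Usp18. The values of Rsad2 and Cmpk2 are differences against signals that were not well above background, in the non-polysomal pool at both times and in the polysomal pool at 6 h. M was above 0 for Bst2, at 1.11. Of all probes, 1.32% had an M called lower and 12.1% an M called higher. Of the first 10, 5 were called lower in both pools (Ifit3, Ifit3b, Usp18, Ifih1 and Parp14) and 5 in the polysomal pool alone (Ifit1, Rsad2, Cmpk2, Ifi44 and Cxcl10).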

How the results depend on the processing

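Leaving out single arrays or slides gave 24 to 26 genes called lower and 2 to 3 higher in the polysomal pool, 17 to 21 and 2 to 2 in the non-polysomal pool and 7 to 12 and 1 to 2 for M, where the second gene called higher appeared without replicate 2 of the 6 h polysomal pool. Between the pools 0 to 0 were called lower and 27 to 29 higher at 0 h, and 2 to 2 and 16 to 21 at 6 h. Over the 12 single arrays, 1 of the 33 genes past the test in the polysomal pool, 2 of 29 in the non-polysomal pool and 5 of 22 for M lost it at least once. Same-numbered samples, which share a slide, correlated at -0.08 to 0.21 in their deviations (median 0.05). Samples with different numbers correlated at -0.19 to 0.12 (median -0.03), and 9 of 12 arrays correlated best with their own number. The main fit did not take the numbers as pairs, although these correlations were somewhat higher within a number, and the replicate block was fitted as an alternative. With the replicate block the calls were 25 lower in the polysomal, 19 in the non-polysomal pool and 9 for M, and M of Oas1a and Rsad2 and the polysomal value of Zbp1 no longer passed. With the fold limit included, single arrays ended the calls of M for 4 genes and of the non-polysomal difference for 2 (Oas1a and Iigp1). Signal near background limits the dim genes, 3 of which were well above background on all arrays of no group.

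The percentages here are the shares of all probes with the same call. Scaling to the 75th percentile gave 1 gene called higher in the polysomal pool (8.70%) and 16 lower and 0 higher for M (3.48% and 3.75%). Between the pools it gave 3 lower and 13 higher at 0 h (26.7% and 11.6%) and 9 lower and 2 higher at 6 h (22.2% and 12.3%). Quantile normalization gave 0 higher in the polysomal pool (7.78%) and 0 higher for M (3.08%). It gave 1 lower and 18 higher at 0 h (14.1% and 16.9%) and 4 lower and 4 higher at 6 h (13.6% and 15.6%). The line through the spike-ins gave 5 higher in the polysomal pool (64.0%), 3 lower and 5 higher for M (0.139% and 63.4%) and 0 lower at 6 h (3.69%). The authors' log2 values gave 5 lower for M (0.313%) and 0 lower at 6 h (3.42%). Normexp fitted without non-uniform spots gave 16 lower in the polysomal (1.63%) and 11 in the non-polysomal pool (2.80%), 4 for M (0.180%), and 0 lower and 7 higher at 6 h (2.92% and 25.1%). Normexp fitted to all spots gave 2 lower in each pool (0.359% polysomal, 1.65% non-polysomal) and 0 lower and 0 higher for M (0.00% and 0.245%). It gave 4 higher at 0 h (8.54%) and 0 lower and 10 higher at 6 h (1.63% and 22.4%), and its fit failed on 3 arrays.

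Signs turned as follows, and apart from that fit the cause was not tested. With the line through the spike-ins M was 0.14 for Ifit2, 0.65 for Irf7, 0.0046 for Irf9, 0.62 for Gbp2, 0.43 for Gbp3, 0.60 for Igtp and 0.61 for Irgm1, and the polysomal difference 0.33 for Zbp1. With the 75th percentile M was -0.015 for Ifi35, and with quantile normalization -0.18 for Ifi35, -0.16 for Ifi204 and -0.12 for Irf1. With the authors' log2 values M of Cmpk2 was 0.12. With the mean of its probes Rsad2 read 0.17 in the polysomal pool and 0.77 for M. Normexp fitted without non-uniform spots gave polysomal differences of 0.39 for Oasl1, 0.15 for Oas2, 0.15 for Zbp1, 0.16 for Rsad2 and 0.12 for Cmpk2, and M-values of -0.34 for Oasl2, 0.13 for Rsad2 and 0.16 for Cmpk2. Normexp fitted to all spots gave polysomal differences of 0.12 for Isg15, 0.17 for Usp18, 1.98 for Oas2, 0.87 for Ifih1, 0.050 for Dhx58, 1.76 for Zbp1, 1.04 for Irf7, 2.08 for Rsad2, 2.03 for Cmpk2, 0.90 for Ifi44, 0.82 for Xaf1, 0.47 for Gbp2, 0.19 for Gbp3, 0.90 for Iigp1 and 1.41 for Cxcl10, a non-polysomal difference of -0.064 for Ifi35, and M-values of 0.26 for Ifit1, 1.75 for Ifit2, 0.55 for Ifit3b, 1.57 for Usp18, 1.22 for Ddx58, 2.27 for Ifih1, 0.18 for Irf9, 0.58 for Stat2, 3.30 for Rsad2, 3.32 for Cmpk2, 2.16 for Ifi44, 0.57 for Parp14, 0.30 for Rtp4, 1.67 for Xaf1 and 2.61 for Cxcl10.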

Other observations

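Genes driven by NF-kappaB share inducers with the interferon-stimulated genes. Of 17 on a list, 16 well above background in a full group, 0 were called lower (5.00% of all probes) and 9 higher (19.2%) in the polysomal pool, and 2 lower (8.11%) and 7 higher (8.12%) in the non-polysomal pool (limma, 3 genes below 0 with an adjusted p under 0.05 in each pool). The median polysomal difference was 1.03, and 0.05 with quantile normalization. Lcn2, the iron-binding lipocalin, read 4.33 in the polysomal and 3.10 in the non-polysomal pool, the cytokine gene Il6 3.13 and 1.44, the chemokine gene Ccl2 2.43 and 1.18, and Nfkbia, the inhibitor of NF-kappaB, 1.65 and 2.00. Cxcl10, which is induced by both routes, read -2.20 and -0.61.

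Genes known to respond to the cocktail rose. Of 9 with a probe, 8 were called higher in the polysomal (19.2% of all probes) and 8 in the non-polysomal pool (8.12%). Among them were Nr4a1, an immediate early gene of cyclic AMP signalling (5.94 in the polysomal pool), Fkbp5, a target of the glucocorticoid receptor (4.53), and Cebpb, an early factor of adipogenesis (4.36).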
